A study of Mus musculus with 39 samples.

Results

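The 10 genes described here are core components and direct outputs of the circadian clock: Arntl, Per1, Per2, Per3, Cry1, Cry2, Nr1d1, Nr1d2, Dbp and Tef. They were found by gene symbol, and all 10 had a row in both deposited tables, out of 16979 genes in the larger table and 13938 in the fixation table. The study sequenced polyadenylated RNA from hindlimb muscle of mice and from the muscle's stem cells, in 39 libraries that fall into 10 groups. In 3 groups (n = 4 each) animals received 4-thiouracil (4tU), a uracil analogue, 6 h before harvest, or every 12 h over 1 d or over 4 d. RNA that had taken up 4tU was then purified by pull-down from hindlimb muscle RNA. These Pax7CreER/+: UPRTHA/+ animals carry a Cre recombinase under the control of Pax7, the transcription factor gene that marks muscle stem cells. They also carry a UPRT transgene, whose enzyme converts 4tU so that it can enter new RNA. Of the other groups with n = 4, 2 were total RNA of whole hindlimb muscle without 4tU labelling and total RNA of isolated stem cells. Another was RNA pulled down from stem cells that had 4tU during their isolation of about 6 h. The last 2 were total RNA of stem cells isolated with α-amanitin, which blocks RNA polymerase II, or with DMSO. Stem cells of mice perfused with 1% paraformaldehyde before isolation (n = 4) and of unfixed mice (n = 3) made up the fixation table. The sources used here do not give age, sex or time of day at harvest, nor which animals gave the whole-muscle RNA or the genotype of the fixation and inhibitor mice. Clock genes cycle over the day, so a difference between groups and a difference in the hour of harvest cannot be told apart in any comparison below.

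In the mammalian clock, the protein of Arntl (BMAL1) pairs with CLOCK, binds E-box sequences and switches on the Per and Cry genes, whose proteins then repress their own activators. Nr1d1 and Nr1d2 encode the REV-ERB nuclear receptors, which are also E-box targets and repress Arntl through binding sites shared with the ROR activators. Dbp and Tef encode PAR bZIP factors, which bind D-box sequences and carry the rhythm to output genes. Skeletal muscle has a clock of its own, in which these genes rise and fall over the day at different hours, with Arntl and the E-box targets known to peak far apart. Per1 and Per2 are also known to respond quickly to glucocorticoid, cAMP and stress signals.

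Promoter sequence was available from RefSeq (GRCm38.p6) for 9 of the 10 members, in 12 promoter entries, and Per2 had none. The 250 bases before each start site were searched on both strands for the E-box CACGTG (which reads the same on both strands) and the E'-box CACGTT (on the other strand AACGTG). They were also searched for the D-box TTATGTAA (on the other strand TTACATAA) and for AGGTCA (on the other strand TGACCT), the half-site of REV-ERB and ROR receptors. Of 32851 mouse promoters searched over the same length, 6.02% held the E-box, 3.85% the E'-box, 0.819% the D-box and 14.02% the half-site. No match of one motif overlapped a match of another in these promoters. A match is a description of the letters and no evidence of binding. The stretches below are shown because the genes they precede include ones that were called in both directions between 6 h labelled RNA and whole muscle (Per1, Per3 and Cry2 higher, Cry1 lower). Each stretch runs 5' to 3' on the gene's strand and holds 30 bases on either side of its matches (fewer after the match in Nr1d1, which lies near the start), and the capitals mark the E-box, E'-box or D-box letters.
Per1, chr11:69098753-69098818, plus strand, E-box 166 bases before the start: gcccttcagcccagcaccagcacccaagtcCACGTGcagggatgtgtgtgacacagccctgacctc
Per3, chr4:151044786-151044900, minus strand, D-boxes 205 and 158 bases before the start: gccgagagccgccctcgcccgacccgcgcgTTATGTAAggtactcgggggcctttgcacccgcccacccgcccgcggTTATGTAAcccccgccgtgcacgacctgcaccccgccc
Cry1, chr10:85185079-85185163, minus strand, E'-box 79 and E-box 60 bases before the start: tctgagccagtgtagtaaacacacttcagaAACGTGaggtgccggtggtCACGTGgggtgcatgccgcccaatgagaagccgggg
Cry2, chr2:92434200-92434265, minus strand, E'-box 166 bases before the start: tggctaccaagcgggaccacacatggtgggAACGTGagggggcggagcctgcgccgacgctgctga
Nr1d1, chr11:98775378-98775435, minus strand, E'-box 28 bases before the start: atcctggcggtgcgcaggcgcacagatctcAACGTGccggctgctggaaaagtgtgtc
Tef, chr15:81811246-81811311, plus strand, E-box 138 bases before the start: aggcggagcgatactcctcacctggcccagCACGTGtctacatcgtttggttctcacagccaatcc

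The stretches of Per1 and Tef lie inside the spans of their own genes, in no annotated exon, before a start site that lies within the gene. The others lie outside the span that the files give for the gene. Tef had another E-box 127 bases before its first start site, Nr1d2 had a receptor half-site 77 bases before its start, and Per1 had one 137 bases before the same start, inside the stretch printed (in lower case). The searched windows of Arntl and Dbp held none of the 4 motifs, which says only that these letters are not within 250 bases of the annotated starts.

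Values are the authors' RPKM (reads per length of gene model and per library size, after the authors' library scaling), which allow levels of different genes to be compared per length. Recovered reads numbered 2321903 to 102619074 per library, with the fewest, 2321903 to 7742378, in the isolation label. Levels are means ± SD over libraries. The labels do not say that replicates were separate animals, so p-values measure the spread between these libraries, which may be technical. The 3 in vivo label groups are given the cell type of stem cells in the labels, but they were pulled down from whole muscle and their markers were those of muscle. The 8 muscle fibre markers summed to between 68100 and 74680 RPKM in the 6 h libraries, below the 127600 to 140300 RPKM of the 1 d and 4 d libraries and the 123400 to 129500 RPKM of whole muscle. Pax7 stood at 0.318 ± 0.058, 0.178 ± 0.051 and 0.196 ± 0.045 RPKM in the labels of 6 h, 1 d and 4 d, against 17.9 ± 1.2 in isolated cells and 0.0889 ± 0.012 in whole muscle (SD, n = 4 each). Every label library lay above every whole-muscle library for Pax7. The lowest label libraries read 0.277 at 6 h, 0.115 at 1 d and 0.130 at 4 d, and the highest of whole muscle 0.1001 RPKM. In bulk RNA, more cells of a type and more RNA per cell cannot be told apart. Pull-downs from muscle without 4tU were not analysed here.

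RNA labelled for 6 h held far more of the period genes and of Dbp than whole-muscle RNA did, and less Arntl and Cry1. On the log2(RPKM + 0.5) scale, on which every difference below is given and which understates changes of low genes, 8 members were higher and 2 lower (limma, Benjamini-Hochberg adjusted p under 0.05 over 11746 genes). This count is near the background, since 90.0% of all genes tested were called, 45.6% higher and 44.4% lower. The members had a median difference of 1.315, against 0.015 over all genes tested. By size of rise among 11746 genes, Per1 ranked 22, Dbp 104, Per2 106, Per3 164, Cry2 827, Nr1d2 955, Nr1d1 2321 and Tef 2535. By size of fall, Cry1 ranked 1184 and Arntl 2488. Per1 and Per2 entered the test only through the 6 h libraries, as no whole-muscle library reached 1 RPKM for either. Sums of cell type markers moved with this comparison. The 8 satellite cell markers summed to between 132.9 and 153.3 RPKM in the 6 h label and between 37.84 and 39.42 in whole muscle, and the 8 endothelial markers to between 2806 and 3003 and between 2089 and 2169. Lower in the 6 h label were the sums of the 8 fibro-adipogenic markers (957.9 to 987.3 against 2150 to 2270 RPKM), of the 8 immune markers (501.4 to 574 against 769.8 to 851.5), of the 8 smooth muscle and pericyte markers (736.9 to 779.1 against 1558 to 1656) and of the 4 erythroid markers measured (210.4 to 233.2 against 1339 to 1512). No marker measured was at 0 in all libraries of either group, and the part of these markers in the 6 h differences was not tested. The 1 d and 4 d labels were compared with the same 4 whole-muscle libraries, so the 3 comparisons share their control. Marker sums differed there too. Endothelial, immune and fibro-adipogenic sums were lower at 1 d (1322 to 1512, 377.6 to 420.5 and 1416 to 1500 RPKM) and at 4 d (1562 to 1632, 456.5 to 509.6 and 1473 to 1517). Smooth muscle and pericyte and erythroid sums were lower at 1 d (1439 to 1476, 525.4 to 566.1) and higher at 4 d (1722 to 1811, 1735 to 2001). Satellite cell sums were 36.7 to 38.23 at 1 d and 33.47 to 36.8 at 4 d. Their part was not tested. In the 1 d label 5 members were higher and 3 lower, with 82.9% of 11158 genes called (28.2% higher, 54.7% lower). In the 4 d label 4 were higher and 5 lower, with 84.5% of 11347 genes called (28.1% higher, 56.4% lower). Over the 9 members tested in each, the median difference was 0.300 in the 1 d label and -0.545 in the 4 d label. Over all genes tested it was -0.185 and -0.213. These 2 medians leave out Per2, which the 6 h median over 10 members includes. Without the filter on low values Per2 stood at 0.397 at 1 d and 0.369 at 4 d, so the medians are not over the same members.

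**Figure D1:**
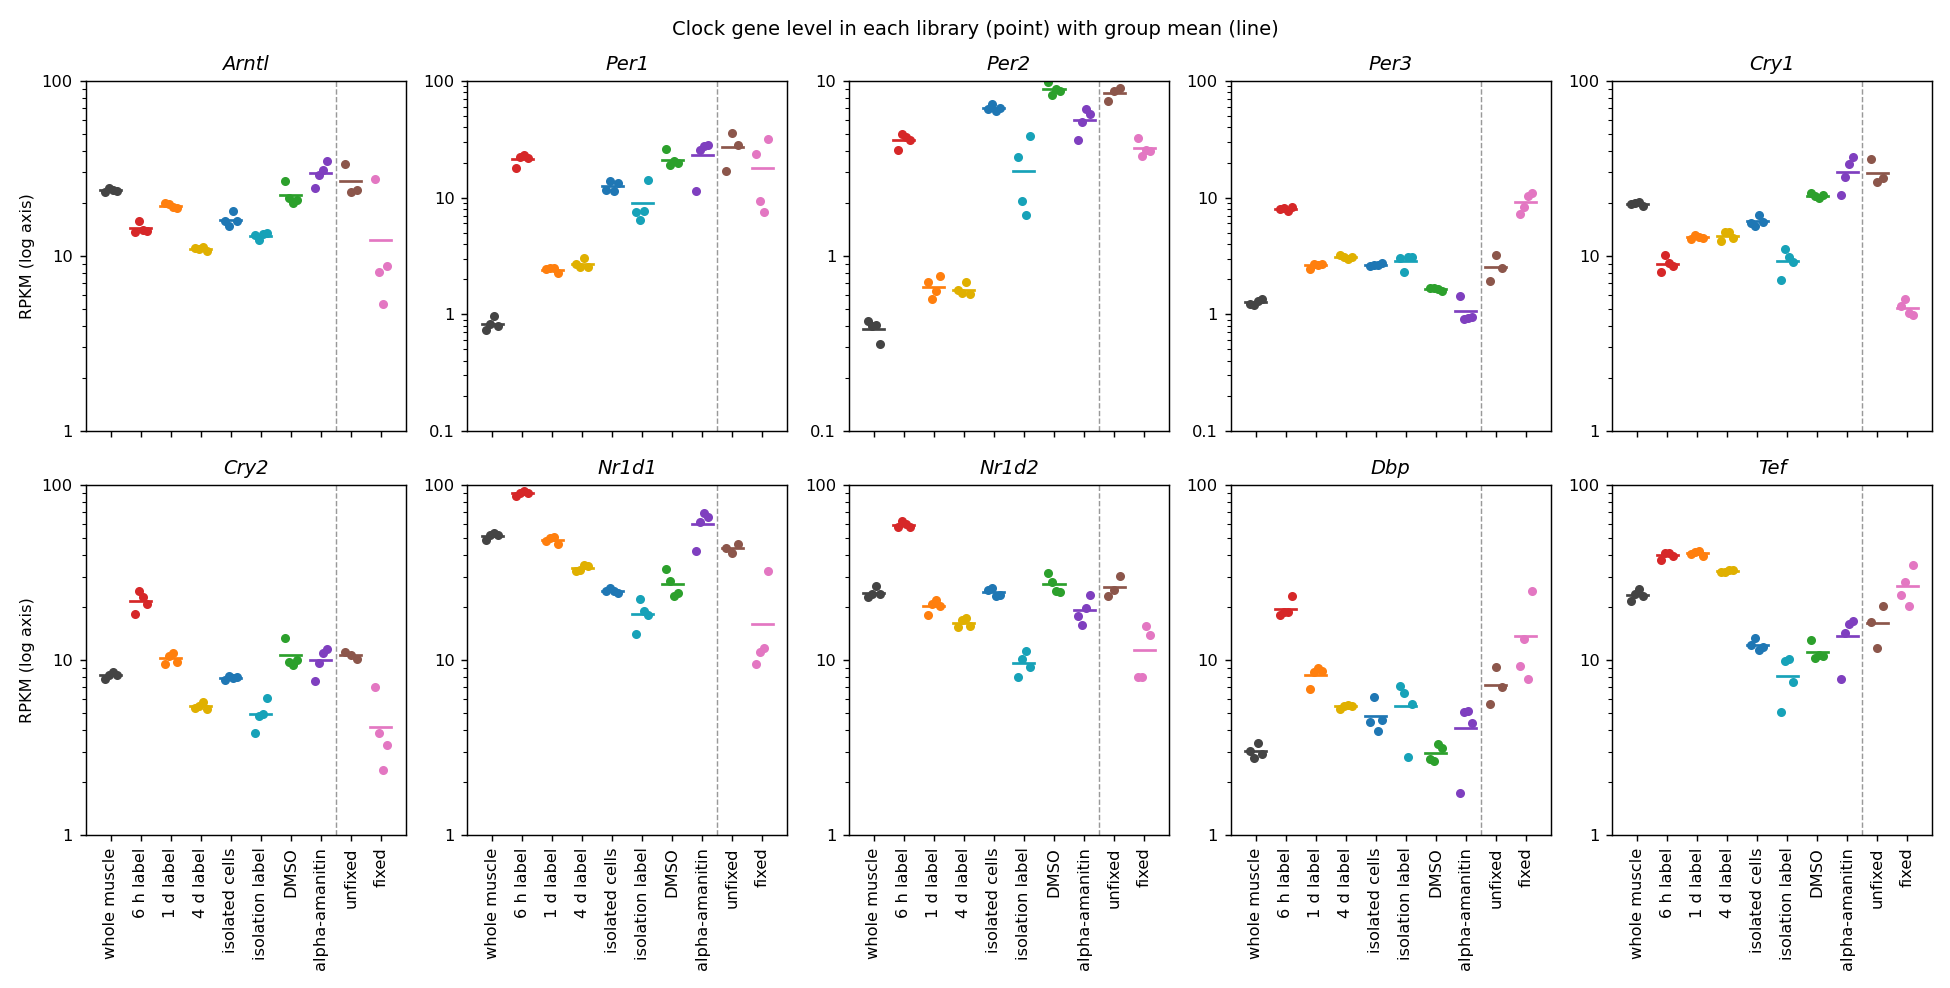
RPKM of each of the 10 clock genes (log axis) in each of 39 libraries (points) of 10 groups, with group means as lines; the dashed line sets off the fixation table, which was normalised separately. Per1, Per2, Per3 and Dbp stand far above whole muscle in the 6 h label (Per1 21.4 against 0.825 RPKM), while Arntl and Cry1 stand below it.

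Arntl (ENSMUSG00000055116, chr7:113207465-113314122 on mm10, plus strand), the activator, varied little in whole muscle, where its 4 libraries read 23.1, 24.4, 23.8 and 23.4 RPKM. The 6 h label libraries read 13.8, 15.8, 14.02 and 13.9, the 1 d libraries 19.97, 19.7, 19.04 and 18.7, and the 4 d libraries 11.1, 11, 11.3 and 10.7. Each label group lay wholly below whole muscle and apart from the other label groups, and the 4 d label was lowest. The difference from whole muscle was -0.70 (SE 0.045, adjusted p = 7.63e-09 by limma) at 6 h, -0.28 (SE 0.040, adjusted p = 1.65e-05) at 1 d and -1.07 (SE 0.035, adjusted p = 6.3e-11) at 4 d. With library sizes from all reads the 1 d difference of Arntl was -0.066 (adjusted p = 0.064). The 4 d fall ranked 450 among 11347 genes, where 56.4% were called lower. Between labels, Arntl was 0.79 higher (SE 0.040, adjusted p = 3.6e-08) at 1 d than at 4 d, rank 77 of 11232 genes by size of rise.

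Per1 (ENSMUSG00000020893, chr11:69095217-69109960, plus strand), a repressor that is also an early response gene, showed the largest difference of the 10 members. Its whole-muscle libraries read 0.726, 0.822, 0.959 and 0.795 RPKM, on 109 to 339 reads each, and its 6 h label libraries 17.9, 22.5, 23.2 and 21.8. The groups were far apart, and since no whole-muscle library reached 1 RPKM, Per1 passed the filter on low values only through the label libraries. The difference at 6 h was 4.04 (SE 0.078, adjusted p = 1.79e-13 by limma), a 16.4-fold difference on this scale. At 1 d the libraries read 2.44, 2.50, 2.50 and 2.24 RPKM and at 4 d 2.72, 2.56, 3.01 and 2.55. Both groups were far below the 6 h label and above whole muscle, by 1.14 (SE 0.064, adjusted p = 2.42e-09) and 1.28 (SE 0.067, adjusted p = 2.45e-09). Per1 did not differ between 1 d and 4 d by the test (difference -0.14, SE 0.059, adjusted p = 0.0676), although the 2 groups' libraries did not overlap. The limma-voom fit on recovered reads called it lower at 1 d (-0.17, adjusted p = 0.0434).

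Per2 (ENSMUSG00000055866, chr1:91415984-91459330, minus strand) and Per3 (ENSMUSG00000028957, chr4:151003652-151044665, minus strand) encode the other period proteins. Per2 read 0.424, 0.396, 0.401 and 0.315 RPKM in whole muscle (62 to 147 reads) and 4.01, 4.96, 4.77 and 4.60 in the 6 h label, a difference of 2.52 (SE 0.067, adjusted p = 2.04e-12 by limma). Like Per1, it passed the filter through the label group alone. Its 1 d libraries (0.708, 0.564, 0.627 and 0.763 RPKM) and 4 d libraries (0.640, 0.611, 0.714 and 0.602) lay above whole muscle without overlap, and the 1 d and 4 d ranges overlapped. None of these libraries reached 1 RPKM, so Per2 was not tested there. Per3 read 1.23, 1.20, 1.29 and 1.34 RPKM in whole muscle and 7.93, 8.12, 7.64 and 8.25 in the 6 h label, a difference of 2.27 (SE 0.047, adjusted p = 2.69e-13). Its mean was 2.62 ± 0.11 at 1 d and 3.10 ± 0.12 at 4 d (SD, n = 4), again both above whole muscle, by 0.82 (SE 0.053, adjusted p = 8.13e-09) and 1.03 (SE 0.049, adjusted p = 1.05e-09). Per3 was the one member called lower at 1 d than at 4 d (-0.21, SE 0.050, adjusted p = 0.00381), and with all groups in 1 fit that call was lost (adjusted p = 0.214).

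The 2 cryptochrome genes, whose proteins repress together with the period proteins, moved in opposite directions in the 6 h label. Cry1 (ENSMUSG00000020038, chr10:85131702-85185054, minus strand) read 19.7, 19.98, 20.2 and 19.2 RPKM in whole muscle and 8.05, 10.1, 9.06 and 8.80 in the 6 h label, a difference of -1.10 (SE 0.057, adjusted p = 8.93e-10 by limma). Cry2 (ENSMUSG00000068742, chr2:92403646-92434043, minus strand) read 7.81, 8.18, 8.52 and 8.25 RPKM in whole muscle and 18.4, 24.8, 23.02 and 21 in the 6 h label, a difference of 1.35 (SE 0.073, adjusted p = 1.46e-09). Whole muscle thus held more Cry1 than Cry2 in every library, and the 6 h label more Cry2 than Cry1 in every library. Cry1 stayed below whole muscle at 1 d (12.8 ± 0.30 RPKM, difference -0.61, SE 0.039, adjusted p = 8.1e-09) and at 4 d (13.0 ± 0.74, -0.58, SE 0.043, adjusted p = 5.79e-08), and these 2 label groups overlapped (adjusted p = 0.704). Cry2 was above whole muscle at 1 d (9.52, 10.6, 10.99 and 9.72 RPKM, difference 0.30, SE 0.052, adjusted p = 0.000121) and below it at 4 d (5.35, 5.46, 5.73 and 5.28, difference -0.55, SE 0.042, adjusted p = 8.65e-08). Directly compared, Cry2 was 0.85 higher (SE 0.052, adjusted p = 1.41e-07) at 1 d than at 4 d and ranked 53 of 11232 genes by that rise.

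Of the REV-ERB genes, Nr1d1 (ENSMUSG00000020889, chr11:98767932-98775333, minus strand) had the highest level of any member in whole muscle, at 48.5, 52.2, 53.3 and 51.9 RPKM. It read 87.0, 89.7, 92.2 and 89.9 RPKM in the 6 h label, 48.0, 49.9, 50.4 and 46.1 at 1 d and 32.1, 32.7, 35.1 and 34.5 at 4 d. The 6 h label thus lay above whole muscle (0.80, SE 0.035, adjusted p = 2.1e-10 by limma), the 1 d label overlapped it (-0.08, SE 0.044, adjusted p = 0.101) and the 4 d label lay below it (-0.61, SE 0.041, adjusted p = 2.59e-08). The 1 d value depended on 1 library and on the scaling: without whole-muscle replicate 1 the difference was -0.11 (adjusted p = 0.0391), and with library sizes taken from all reads it was 0.14 (adjusted p = 0.00195). Nr1d2 (ENSMUSG00000021775, chr14:18204054-18239127, minus strand) went the same way, with 24.2 ± 1.5 RPKM in whole muscle, 59.3 ± 2.2 at 6 h, 20.4 ± 1.7 at 1 d and 16.3 ± 0.88 at 4 d (SD, n = 4 each). Its differences from whole muscle were 1.28 (SE 0.045, adjusted p = 2.65e-11), -0.25 (SE 0.062, adjusted p = 0.00248) and -0.55 (SE 0.051, adjusted p = 5.05e-07). The 1 d difference was -0.03 (adjusted p = 0.689) with library sizes from all reads, and with all groups in 1 fit its call was lost (adjusted p = 0.0674).

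Dbp (ENSMUSG00000059824, chr7:45705088-45710155, plus strand), a D-box output factor and a textbook target of the E-box activators, read 3.01, 2.76, 3.35 and 2.90 RPKM in whole muscle. The 6 h label read 18.1, 18.7, 18.8 and 23.2, the 1 d label 6.83, 8.57, 9.001 and 8.66 and the 4 d label 5.28, 5.50, 5.51 and 5.45. The 4 groups did not overlap, and the order ran from whole muscle through the 4 d and the 1 d label to the 6 h label. The differences from whole muscle were 2.52 (SE 0.075, adjusted p = 5.49e-12 by limma), 1.32 (SE 0.079, adjusted p = 4.06e-09) and 0.76 (SE 0.053, adjusted p = 3.3e-08) at 6 h, 1 d and 4 d. Tef (ENSMUSG00000022389, chr15:81802421-81826861, plus strand), its relative, was high in all labels, with 23.5 ± 1.6 RPKM in whole muscle, 39.7 ± 1.6 at 6 h, 40.9 ± 1.2 at 1 d and 32.4 ± 0.56 at 4 d (SD, n = 4 each). Tef was above whole muscle by 0.74 (SE 0.048, adjusted p = 8.52e-09), 0.79 (SE 0.049, adjusted p = 6.26e-09) and 0.45 (SE 0.045, adjusted p = 9.75e-07). The 6 h and 1 d labels overlapped for Tef (-0.04, SE 0.041, adjusted p = 0.324), which made it the only member without a call between them; with library sizes from all reads the difference was 0.09 (adjusted p = 0.0902).

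**Figure D2:**
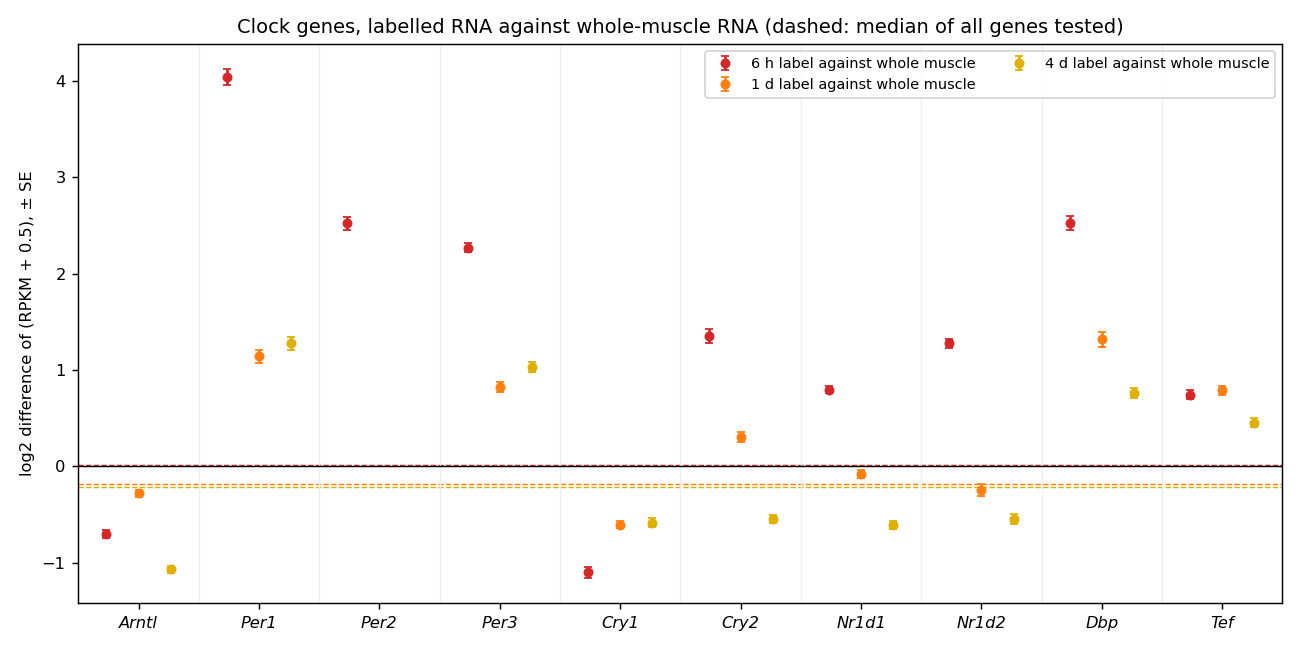
Difference of each clock gene from whole muscle on the log2(RPKM + 0.5) scale (points, ± SE from limma, n = 4 against 4) in the 6 h, 1 d and 4 d labels; dashed lines are the medians of all genes tested in each comparison. Per1 reaches 4.04 at 6 h and 1.28 at 4 d, Cry2 goes from 1.35 at 6 h to -0.55 at 4 d, and Per2 has a point at 6 h alone because it was not tested in the others.

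Compared with each other, the labels differed most between 6 h and the longer times. The 6 h label was higher than the 1 d label for 7 members and lower for Arntl (-0.42, SE 0.049, adjusted p = 2.68e-06 by limma) and Cry1 (-0.49, SE 0.059, adjusted p = 3.43e-06), with 86.2% of 11822 genes called (50.0% higher, 36.2% lower). It was higher than the 4 d label for 9 members and lower for Cry1 alone (-0.51, SE 0.063, adjusted p = 7.08e-06), with 88.7% of 11975 genes called (52.7% higher, 36.1% lower). Per2 is counted as higher in both comparisons. It entered these tests only through the 6 h libraries, since no 1 d or 4 d library reached 1 RPKM for it. With all groups in 1 fit Tef lost its call against 4 d (0.29, adjusted p = 0.136). Per1 had the largest of these differences, 2.90 (SE 0.071, adjusted p = 1.73e-12) over 1 d and 2.76 (SE 0.076, adjusted p = 1.53e-11) over 4 d. Nr1d2 was 1.52 (SE 0.057) above 1 d and 1.83 (SE 0.043) above 4 d, and Cry2 was 1.05 (SE 0.079) above 1 d and 1.90 (SE 0.074) above 4 d. Between 1 d and 4 d, Arntl, Cry2, Nr1d1, Nr1d2, Dbp and Tef were higher at 1 d and Per3 lower, with 54.2% of 11232 genes called (33.3% higher, 21% lower). Nr1d1 was 0.53 (SE 0.045, adjusted p = 1.39e-06), Dbp 0.56 (SE 0.071, adjusted p = 3.63e-05), Tef 0.33 (SE 0.038, adjusted p = 1.43e-05) and Nr1d2 0.31 (SE 0.061, adjusted p = 0.00111) higher at 1 d. With all groups in 1 fit, 3 of these 7 calls were made (Arntl, Cry2 and Nr1d1). The calls of Dbp (adjusted p = 0.129 by limma), Tef (0.286), Nr1d2 (0.0937) and Per3 (0.214) were lost.

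The library scaling moves all genes together, and the direction of these calls was checked against it. With factors from the median of ratios, the median over all genes tested moved by -0.206 in the 6 h comparison with whole muscle. With library sizes from all reads it moved by 0.333 at 6 h, 0.206 at 1 d and 0.183 at 4 d. It moved by 0.127 and 0.148 for 6 h against 1 d and against 4 d. The 6 h count of 8 higher and 2 lower and the 4 d count of 4 higher and 5 lower were the same under both scalings. The 1 d count was 6 higher and 1 lower with library sizes from all reads. Over all genes the same scaling raised the share of calls that were higher from 50.6% to 66.1% at 6 h, from 34.04% to 51.7% at 1 d and from 33.3% to 47.1% at 4 d.

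A ratio of 2 genes within a library does not depend on its scaling. Dbp over Arntl was 0.127 ± 0.012 in whole muscle, 1.38 ± 0.20 at 6 h, 0.428 ± 0.059 at 1 d and 0.494 ± 0.016 at 4 d (SD, n = 4 each). Whole muscle lay below the 3 label groups in every library, and the 6 h label above the others. Cry2 over Cry1 was 0.414 ± 0.014 in whole muscle, 2.42 ± 0.11 at 6 h, 0.796 ± 0.046 at 1 d and 0.419 ± 0.016 at 4 d. The 4 d label and whole muscle overlapped (0.399 to 0.438 and 0.396 to 0.430), and the 6 h and 1 d labels stood above them. Nr1d1 over Arntl was 2.17 ± 0.064, 6.26 ± 0.40, 2.51 ± 0.10 and 3.05 ± 0.15 in the same order of groups, and Per3 over Arntl 0.0534 ± 0.0033, 0.557 ± 0.035, 0.136 ± 0.0090 and 0.282 ± 0.014. In all 4 ratios the 6 h label was the highest of these groups and whole muscle the lowest by mean.

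**Figure D3:**
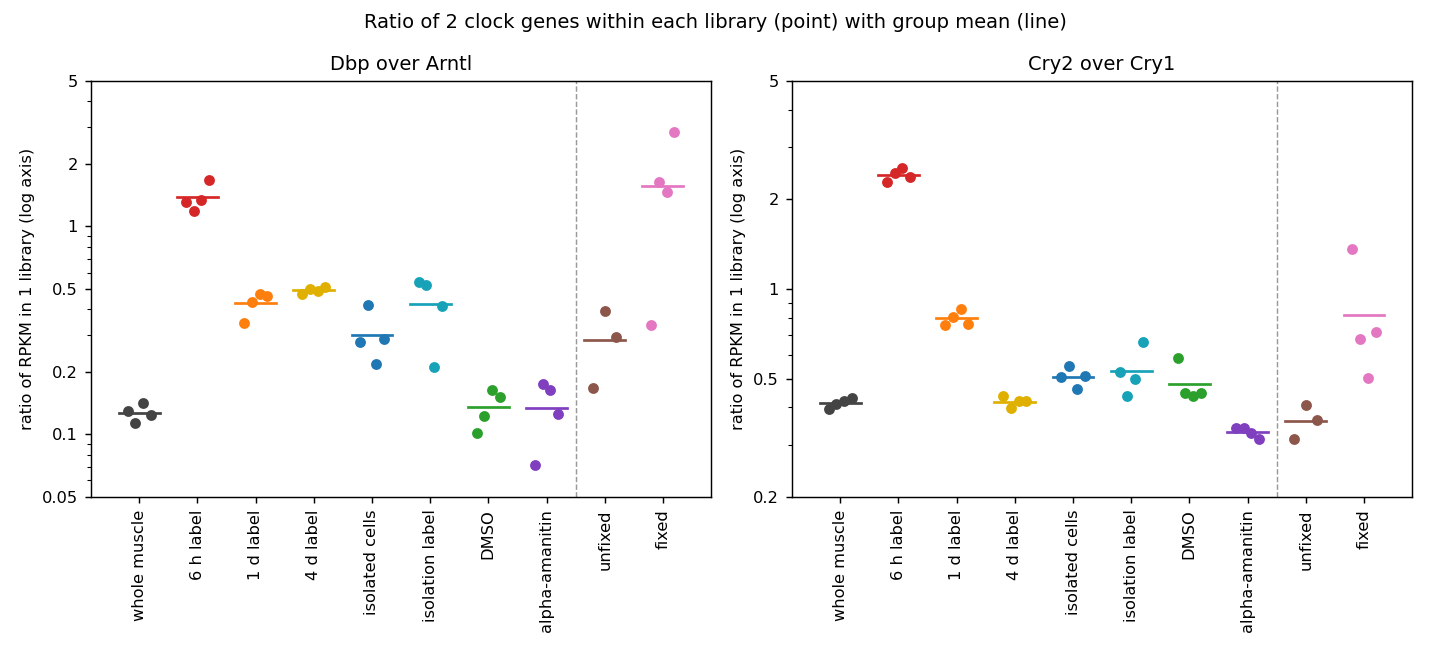
Ratio of RPKM within each library (points, log axis) of Dbp to Arntl and of Cry2 to Cry1 in the 10 groups, with group means as lines; the dashed line sets off the fixation table. Among the groups of the larger table the 6 h label is highest in both (1.38 and 2.42), and the 4 d label lies with whole muscle for Cry2 over Cry1 (0.419 and 0.414) but not for Dbp over Arntl (0.494 and 0.127).

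The other genes of the clock pathway were followed with a list of 20: activators, further E-box and D-box factors, the kinases, ligases and proteases that act on PER and CRY proteins, and 2 outputs. In the 6 h label 11 were higher and 4 lower than whole muscle, 2 were not called and 3 not tested, with a median of 0.344 over the tested genes against 0.015 over all genes. This count is near the background, since 90.0% of all genes tested were called (45.6% higher, 44.4% lower). The split of the pathway genes moved to 9 higher and 7 lower with the median of ratios and to 15 higher and 1 lower with library sizes from all reads. Ciart, a repressor of CLOCK and BMAL1, stood at 15.3 ± 1.2 RPKM at 6 h and 1.18 ± 0.054 in whole muscle (difference 3.23, SE 0.057, adjusted p = 9.79e-14 by limma). Usp2, a deubiquitinase of clock proteins, stood at 176 ± 8.7 and 51.3 ± 1.2 (1.76, SE 0.038, adjusted p = 3.61e-13).

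In the 1 d label 6 of the 20 were higher and 5 lower (10 higher and 4 lower with library sizes from all reads), and in the 4 d label 7 were higher and 9 lower (2 higher and 6 lower with all groups in 1 fit). Over all genes tested, 82.9% were called at 1 d (28.2% higher, 54.7% lower) and 84.5% at 4 d (28.1% higher, 56.4% lower). Lower at 1 d were Bhlhe40, an E-box repressor (44.9 against 62.7 RPKM, -0.48, SE 0.038), and Btrc, a ligase subunit that acts on PER proteins (4.8 against 7.03, -0.51, SE 0.053). Lower at 4 d were Rora, a nuclear receptor that activates Arntl (11.1 against 20.1 RPKM, -0.83, SE 0.040), Btrc (3.60, -0.88, SE 0.047), its relative Fbxw11 (14.6 against 23.9, -0.69, SE 0.039) and Bhlhe40 (43.3, -0.53, SE 0.035). Their adjusted p by limma lay between 1.29e-09 and 9.87e-07. Between the labels, 12 of the 20 were higher and 3 lower at 6 h than at 1 d, and 14 higher and 2 lower at 6 h than at 4 d. Over all genes tested, 86.2% were called against 1 d (50.0% higher, 36.2% lower) and 88.7% against 4 d (52.7% higher, 36.1% lower). Ciart (1.29 ± 0.24 RPKM at 1 d, 1.53 ± 0.051 at 4 d) and Usp2 (57.8 ± 3.7 and 39.1 ± 0.34) were much lower at the longer times. At 1 d against 4 d, 11 were higher and 1 lower, led by Csnk1d, a kinase of PER proteins (22.8 against 15.1 RPKM, 0.58, SE 0.044, adjusted p = 6.19e-07), and this fell to 3 higher with all groups in 1 fit. The background at 1 d against 4 d was 54.2% of 11232 genes called (33.3% higher, 21% lower).

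**Figure D4:**
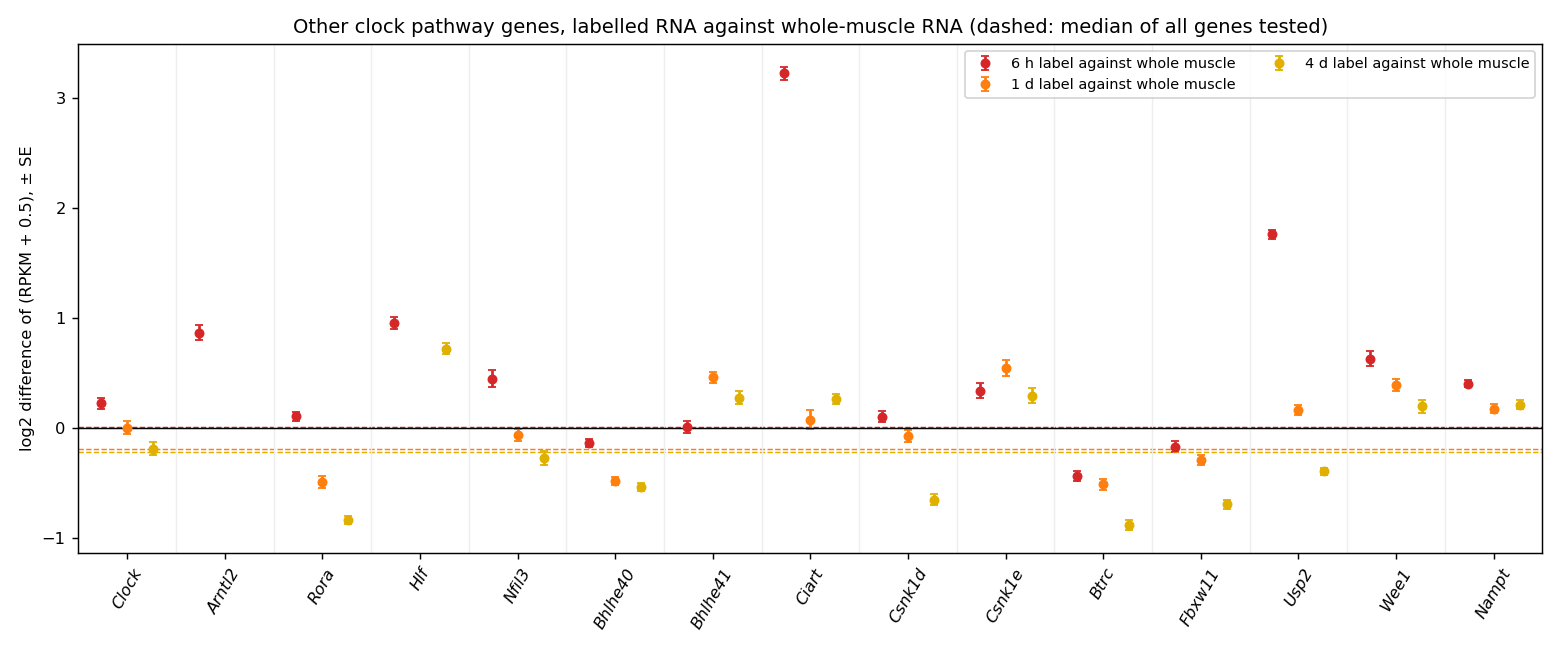
Difference from whole muscle on the log2(RPKM + 0.5) scale (points, ± SE from limma, n = 4 against 4) of 15 of the 17 listed clock pathway genes tested in at least 1 of the 3 label comparisons; dashed lines are the medians of all genes tested. Ciart (3.23) and Usp2 (1.76) are highest at 6 h.

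Isolated stem cells, with Pax7 at 17.9 RPKM and fibre markers that summed to between 134.5 and 320.6 RPKM, differed from whole muscle most in Per1 and Per2 among the members. Per1 read 11.6, 13.9, 11.3 and 13.5 RPKM (difference 3.30, SE 0.077, adjusted p = 8.2e-13 by limma) and Per2 6.91, 7.37, 6.73 and 6.97 (3.08, SE 0.056, adjusted p = 8.3e-14). Every isolated-cell library was above every whole-muscle library for both genes, and no whole-muscle library reached 1 RPKM for either. Per3 (2.66 ± 0.077 RPKM, 0.84, SE 0.049) and Dbp (4.77 ± 0.98, 0.58, SE 0.11) were also higher. Lower were Arntl (16.1 ± 1.3 RPKM, -0.54, SE 0.053), Cry1 (15.8 ± 1.0, -0.32, SE 0.046), Nr1d1 (24.9 ± 0.75, -1.03, SE 0.039) and Tef (12.2 ± 0.82, -0.92, SE 0.057). Cry2 (-0.04, SE 0.039, adjusted p = 0.335) and Nr1d2 (0.01, SE 0.051, adjusted p = 0.785) were not called. The background was 95.3% of 14813 genes called (48.8% higher, 46.5% lower).

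The 4 lower calls depend on the library scaling. With all reads as the library size, the median over all genes tested moved by 1.372 and the members became 10 higher and 0 lower. Arntl then stood at 1.03, Cry1 at 1.25, Nr1d1 at 0.57 and Tef at 0.65. The share of calls over all genes that were higher went from 51.2% to 76.2%. With the median of ratios the median moved by -0.139 and the members were 4 higher and 6 lower. Per1, Per2, Per3 and Dbp were higher under each scaling. With 95.3% of all genes tested called, 10 of the 20 other pathway genes were higher and 9 lower (17 higher and 3 lower with library sizes from all reads). They included Fbxl21, which encodes a ligase subunit (1.80 against 0.0894, 1.97, SE 0.048), Csnk1d (77.5 against 24 RPKM, 1.68, SE 0.045) and Rorb, a nuclear receptor gene (2.01 against 0.0584, 2.17, SE 0.059), with adjusted p between 1.17e-12 and 2.93e-12. Lying far below 1 RPKM in whole muscle, Fbxl21 and Rorb passed the filter on low values only through the isolated cells.

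RNA labelled during isolation held less of most clock transcripts than the total RNA of isolated cells. Of the members 0 were higher and 7 lower, with 59.5% of 14863 genes called (29.8% higher, 29.7% lower). The largest differences were in Nr1d2, at 8.03, 10.1, 11.3 and 9.08 RPKM against 25.1, 25.9, 23.3 and 23.5 (-1.31, SE 0.13, adjusted p = 2.59e-05 by limma), and in Per2, at 3.66, 2.06, 1.72 and 4.82 against 6.91, 7.37, 6.73 and 6.97 (-1.16, SE 0.27, adjusted p = 0.00488). The groups did not overlap for either gene, though the label libraries spread widely for Per2. Cry1 (9.32 ± 1.5 RPKM, -0.74, SE 0.14, adjusted p = 0.00173) and Cry2 (4.90 ± 0.94, -0.66, SE 0.16, adjusted p = 0.00521) were lower as well. Tef (8.13 ± 2.4, -0.61, SE 0.21, adjusted p = 0.0304), Nr1d1 (18.4 ± 3.4, -0.45, SE 0.14, adjusted p = 0.0209) and Arntl (13.1 ± 0.54, -0.29, SE 0.11, adjusted p = 0.0459) were lower by less. Per1 (8.91 ± 3.5, -0.53, SE 0.23, adjusted p = 0.0676), Per3 (2.89 ± 0.39, adjusted p = 0.655) and Dbp (5.49 ± 1.9, adjusted p = 0.702) were not called.

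Without isolated-cell replicate 1, 2 or 3 the count was 4 lower, as Arntl, Nr1d1 and Tef lost their calls (adjusted p 0.055 to 0.166). Arntl and Tef also lost theirs without isolated-cell replicate 4 (adjusted p = 0.106 and 0.0635), and Arntl with the median of ratios (0.0738) and with limma-voom on recovered reads (0.065). Per1 was called lower with limma-voom (adjusted p = 0.0297), with all groups in 1 fit (0.0189) and with library sizes from all reads (0.0015). Without isolation label replicate 4, whose Per1 of 14.03 RPKM stood above the others' 6.41 to 7.66, Per1 was called at -0.76 (adjusted p = 0.00105) and Tef was not (adjusted p = 0.0549). Without isolation label replicate 2 Arntl was not called (adjusted p = 0.0689). With all reads as the library size, the median over all genes tested moved by -0.597 and 9 members were lower, 0 higher. With 59.5% of all genes tested called, 2 of the other pathway genes were higher and 6 lower (2 and 16 with library sizes from all reads, 2 and 12 with all groups in 1 fit). They were led by Clock, the partner of Arntl (3.38 ± 0.48 against 10.9 ± 0.87 RPKM, -1.57, SE 0.15, adjusted p = 1.85e-05), and by Fbxw11 (10.9 against 20.1, -0.86, SE 0.11, adjusted p = 0.00015). The 8 muscle fibre markers, all detected in both groups, summed to between 8694 and 35010 RPKM in the isolation label and between 134.5 and 320.6 in isolated cells. Endothelial (1278 to 1479 against 127.7 to 137.9) and immune sums (308 to 442.9 against 23.82 to 26.44) were higher too. So were fibro-adipogenic (1731 to 2116 against 761.4 to 794.5), smooth muscle and pericyte (737 to 991.4 against 346.5 to 368.4) and erythroid sums (331.6 to 569.9 against 14.77 to 18.29). The satellite cell sum was lower (483 to 845.3 against 1262 to 1291). The part of these markers in the differences was not tested.

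With the polymerase inhibitor α-amanitin present during isolation, Nr1d1 was higher than with DMSO and Per2, Per3 and Nr1d2 were lower, with 44.2% of 13710 genes called (33.9% higher, 10.3% lower). Nr1d1 read 42.0, 61.8, 69.2 and 65.8 RPKM with the inhibitor and 33.3, 28.3, 23.3 and 24.2 with DMSO, without overlap (1.10, SE 0.22, adjusted p = 0.00606 by limma). Per2 read 4.61, 5.80, 6.96 and 6.45 against 9.87, 8.33, 8.99 and 8.80 (-0.57, SE 0.15, adjusted p = 0.0165). Nr1d1 was thus called higher and its paralogue Nr1d2 lower (19.3 ± 3.2 against 27.2 ± 3.2 RPKM, -0.49, SE 0.18, adjusted p = 0.0473). Per3 was lower by 0.48 on the log2 scale, at 1.06 ± 0.25 against 1.65 ± 0.045 RPKM (SE 0.17, adjusted p = 0.0433). Arntl (0.41, SE 0.18, adjusted p = 0.084), Cry1 (0.42, SE 0.19, adjusted p = 0.0898), Cry2 (-0.09, SE 0.18), Per1 (0.05, SE 0.28), Dbp (0.32, SE 0.27) and Tef (0.24, SE 0.24) were not called. The median over all genes was 0.276, against 0.143 over the members.

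Replicate 1 of the inhibitor group stood apart, with Per1 at 11.5 RPKM against 25.4 to 28.1 in the others. Without it 9 members were called, 6 higher (Nr1d1, Dbp 0.63, Cry1 0.55, Arntl 0.50, Tef 0.48 and Per1 0.35) and 3 lower. Without inhibitor replicate 2 the count was 1, and without inhibitor replicate 3 or DMSO replicate 2, 3 or 4 it was 2, as Per3, Nr1d2 and, without inhibitor replicate 2, Per2 lost their calls. Nr1d1 was called with each library left out in turn. With all groups in 1 fit Arntl and Cry1 were called higher (adjusted p = 0.000738 and 0.00307). With all reads as the library size, the median over all genes tested moved by -0.464 and 1 member was higher (Nr1d1) and 6 lower. Over all genes the share of calls that were higher went from 76.7% to 43.9%. With the median of ratios the median moved by -0.142 and the member calls were 1 higher and 3 lower. With 44.2% of all genes tested called, 7 of the other pathway genes were higher and 1 lower (3 and 4 with library sizes from all reads, 10 and 4 without inhibitor replicate 1). They were led by Csnk1e, a kinase of PER proteins (19 ± 4.8 against 8.04 ± 1.2 RPKM, 1.16, SE 0.22, adjusted p = 0.00557). Nfil3, a D-box repressor (147 against 69.5, 1.04, SE 0.26, adjusted p = 0.0135), was higher, and Clock was the 1 lower gene (8.42 against 14.7, -0.79, SE 0.18, adjusted p = 0.00973). Fibre markers summed to between 2477 and 12520 RPKM with the inhibitor and between 108.1 and 170.8 with DMSO. Erythroid sums were 52.32 to 187.6 and 36.25 to 38.71. Sums of the other types overlapped between the groups, with higher means with the inhibitor. These means were fibro-adipogenic 2898 against 1428, endothelial 617.3 against 332.4, immune 165.7 against 69.83, smooth muscle and pericyte 838.9 against 498.3, and satellite cell 1650 against 1537 RPKM. The part of all these markers in the differences was not tested.

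In the fixation table, cells fixed by perfusion before isolation held less Cry1, Nr1d1, Cry2, Nr1d2 and Per2 and more Per3 than unfixed cells, with 23% of 12816 genes called (12.2% higher, 10.8% lower). Cry1 read 5.14, 5.64, 4.69 and 4.57 RPKM in fixed and 35.6, 26.4 and 28 in unfixed cells, a difference of -2.46 (SE 0.23, adjusted p = 0.000155 by limma) that ranked 326 among 12816 genes by size of fall. Per3 read 7.25, 8.36, 10.4 and 11.02 in fixed and 1.92, 3.20 and 2.51 in unfixed cells (1.69, SE 0.29, adjusted p = 0.00295). Both were called with each library left out in turn, and the fixed libraries of neither gene overlapped the unfixed ones. Nr1d1 was lower in fixed cells (9.45, 11.1, 11.7 and 32.3 RPKM against 43.7, 41.04 and 46.3; -1.59, SE 0.38, adjusted p = 0.0154), with fixed replicate 5 well above the other fixed libraries. Cry2 (4.12 ± 2.0 against 10.7 ± 0.51 RPKM, -1.37, SE 0.35, adjusted p = 0.0188), Nr1d2 (11.4 ± 3.9 against 26.2 ± 3.8, -1.22, SE 0.29, adjusted p = 0.0151) and Per2 (4.13 ± 0.42 against 8.51 ± 0.70, -0.96, SE 0.25, adjusted p = 0.0212) were lower too.

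Arntl read 27.4, 8.06, 5.31 and 8.80 RPKM in fixed cells against 33.5, 23.3 and 23.8 in unfixed cells and was not called (-1.34, SE 0.47, adjusted p = 0.0673), but was called without fixed replicate 1 (-1.80, adjusted p = 0.0021) and with limma-voom on recovered reads (-1.39, adjusted p = 0.0489). Tef (26.7 ± 6.3 against 16.2 ± 4.3 RPKM, 0.71, SE 0.27, adjusted p = 0.0882) was called without fixed replicate 4 (0.83, adjusted p = 0.0441), and Dbp (0.77, SE 0.39) and Per1 (-0.74, SE 0.50) were not called. With only 3 unfixed libraries, leaving out replicate 1, 2 or 3 of them brought the 6 calls to 3, 2 and 2. Between fixed and unfixed cells, 23% of 12816 genes were called (12.2% higher, 10.8% lower). Of the other pathway genes 0 were higher and 9 lower (5 lower without unfixed replicate 3), and 18 were tested. They were led by Csnk1d (32.1 ± 2.7 against 162 ± 19 RPKM, -2.31, SE 0.18, adjusted p = 6.12e-05), Bhlhe40 (12.0 against 129, -3.47, SE 0.36, adjusted p = 0.000285), Nfil3 (12.2 against 110, -3.51, SE 0.58, adjusted p = 0.00234) and Fbxw11 (8.69 against 29.5, -1.81, SE 0.36, adjusted p = 0.00623). Satellite cell markers summed to between 634 and 930 RPKM in fixed and between 2228 and 2697 RPKM in unfixed cells, with Pax7 itself at 65.4 ± 16 and 29.5 ± 8.0 RPKM. Endothelial markers summed to between 40.49 and 249.1 RPKM in fixed and between 214.3 and 1308 RPKM in unfixed cells. Fibro-adipogenic sums were 955.1 to 1742 in fixed and 1828 to 2881 RPKM in unfixed cells, and fibre sums 45.63 to 453.7 and 321.5 to 4020. Immune, erythroid, and smooth muscle and pericyte sums overlapped between the groups. The part of these markers in these differences was not tested.

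**Figure D5:**
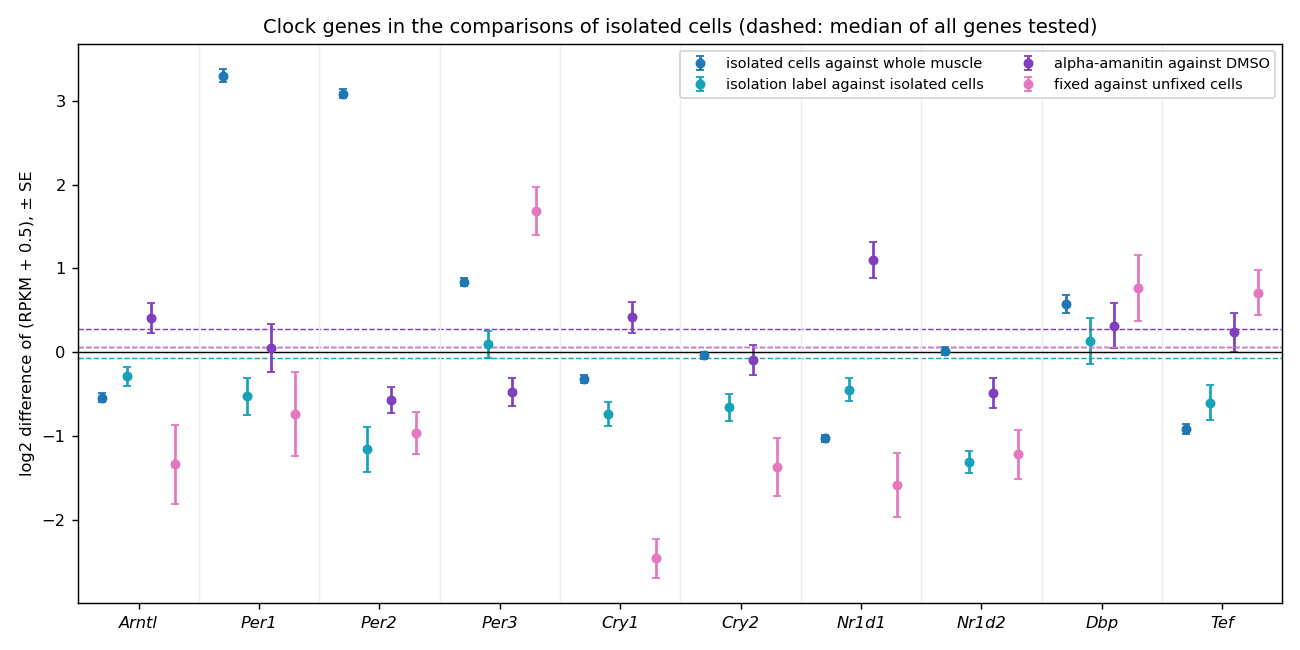
Difference of each clock gene on the log2(RPKM + 0.5) scale (points, ± SE from limma; n = 4 against 4, and 4 fixed against 3 unfixed) in the 4 comparisons of isolated cells; dashed lines are the medians of all genes tested in each comparison. Per1 (3.30) and Per2 (3.08) stand highest in isolated cells against whole muscle, and Cry1 in fixed cells is lowest (-2.46).

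Across the 8 groups of the larger table, the members differed in how far their level ranged. The highest group mean was 28 times the lowest for Per1, 23.4 times for Per2, 7.56 times for Per3, 6.68 times for Dbp and 6.16 times for Nr1d2. It was 2.71 times for Arntl, the smallest range. The 6 h label had the highest mean for Per3, Cry2, Nr1d1, Nr1d2 and Dbp, each without overlap with the next group. Whole muscle had the lowest mean for Per1 and Per2, in both cases apart from the next group. The share of all genes that stood apart in such ways was not counted. Between the 6 h label and whole muscle, 90.0% of all genes tested were called. For Per1 the α-amanitin group (23.1 ± 7.8 RPKM), the 6 h label (21.4 ± 2.3) and the DMSO group (21.2 ± 3.2) headed the order and overlapped each other. They were followed by isolated cells (12.6 ± 1.3), the isolation label (8.91 ± 3.5), the 4 d label (2.71 ± 0.22), the 1 d label (2.42 ± 0.12) and whole muscle. For Per2 the DMSO group was highest (9.0 ± 0.65 RPKM), above isolated cells (7.0 ± 0.27), α-amanitin (5.96 ± 1.0) and the 6 h label (4.59 ± 0.41), of which each overlapped the next. Tef was highest in the 1 d and 6 h labels, which overlapped, and lowest in the isolation label. Arntl and Cry1 were highest with α-amanitin (29.8 ± 4.4 and 30.2 ± 6.4 RPKM), where Arntl overlapped whole muscle and Cry1 the DMSO group.

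As a description over the 8 group means of log2(RPKM + 0.5), which share the groups' scaling and depth, Per1 correlated most with Per2 among the members (r = 0.953), Cry2 with Nr1d2 (r = 0.922) and Per3 with Dbp (r = 0.910). Arntl and Cry1 went together (r = 0.839) and Per3 went against Cry1 (r = -0.863). Likeness was searched among 13839 named genes with a mean of 1 RPKM or more in at least 1 group. Those most like Dbp were Cmtm4 (r = 0.969), Trio (0.952), Pfas, Prkce and Pabpn1 (each 0.950). Cmtm4 reached that mean only in the 6 h label (1.48 ± 0.060 RPKM), the group where Dbp was highest. Those most like Arntl were Aatf (0.962), Ubxn4 (0.955), Cirh1a (0.946), Spcs3 (0.937) and Noc4l (0.927). Pabpn1, a poly(A)-binding protein gene, stood at 2.96 ± 0.38 RPKM in whole muscle, 14.4 ± 0.77 at 6 h, 7.46 ± 0.41 at 1 d and 6.92 ± 0.47 at 4 d.

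Some members share sequence space with neighbours, and the sources used here do not say whether the counting used strand. The exons of Nr1d1 overlap those of Thra, on the other strand, over 263 bases (8.55% of the Nr1d1 model), and those of Dbp overlap Sphk2, also on the other strand, over 491 bases (16.7%). Thra stood at 6.67 ± 0.28 RPKM in whole muscle and 10.9 ± 0.38 in the 6 h label, where Nr1d1 stood at 51.5 ± 2.1 and 89.7 ± 2.1. Sphk2 stood at 7.01 ± 0.19 and 6.82 ± 0.23 RPKM, above Dbp in whole muscle (3.0 ± 0.25) and below it in the 6 h label (19.7 ± 2.3). Without strand, reads in the shared exons cannot be assigned, and the low Dbp level of whole muscle is uncertain for that reason. Per3 lies within the span of Camta1 with 0 bases of exon overlap, and Camta1 stood at 7.77 ± 0.28 and 7.05 ± 0.33 RPKM in whole muscle and the 6 h label.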

How the data were processed

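RPKM values were deposited by the authors in 1 table of 32 libraries (labelling and inhibitor) and 1 of 7 (fixation). Each table had its own normalisation, and no test crossed them. The tools were STAR, Trim Galore, edgeR and featureCounts (Subread), with the mm10 build, per the submitters' processing notes, which give no versions here. Per the labels' protocols, 500 pg of RNA (1 ng for fixation) was reverse-transcribed with oligo(dT). In the larger table header names sit 1 cell off their columns, which were therefore taken by position. RPKM times gene length gave whole reads within 0.1 in 100.0% of values, hence reads and scaling factors (0.612 to 1.949 in the larger table). Replicate pairs differed by 2.488 or more (chi-square per gene), and 0 were identical.

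The tests used limma 3.58.1 (R 4.3.3; lmFit, eBayes with trend) on log2(RPKM + 0.5) of the 2 groups compared, for genes that reached 1 RPKM in 3 or more of their libraries. P-values were Benjamini-Hochberg adjusted over all genes tested and called under 0.05, and the script was tested on simulated data. Tables were handled with pandas 2.3.3 and numpy 2.4.6 (Python 3.11.15) and plotted with matplotlib 3.10.9. Genes without a symbol were named by gene ID (1350 of 1488, and 468 of 555). Named are all 10 members, up to 4 called genes per comparison of 20 other pathway genes by smallest adjusted p (some are not reported here, though counted), the 5 genes most like Dbp and Arntl, and genes overlapping a member. The members and lists were chosen with earlier results of these data known. Alternatives were pseudocount 1, no filter, 2 library scalings, limma-voom on recovered reads, all groups in 1 fit, a replicate block, and each library left out.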

Additional observations from a re-analysis of the deposited data

Results flagged for a closer look

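In groups of 4 libraries, 10 of 90 pairs of gene and group held a library flagged by Dixon's ratio, where chance gives about 1 in 20. The ratio is the gap to the nearest other library divided by the range of the group, and it exceeded the 95% critical value. With the inhibitor α-amanitin, replicate 1 stood apart for Per1 (11.48 RPKM, the others 25.41 to 28.05) and Per3 (1.436, the others 0.9025 to 0.9557), 2 genes that it moved in opposite directions. Replicate 1 of the DMSO group was highest for Cry2 (13.39 RPKM, the others 9.328 to 10.01) and Tef (13.08, the others 10.29 to 10.71). Among fixed cells, replicate 1 was highest for Arntl (27.38 RPKM, the others 5.314 to 8.797) and replicate 5 for Nr1d1 (32.35, the others 9.445 to 11.71). In the isolation label, replicate 4 was highest for Per1 (14.03 RPKM, the others 6.41 to 7.665) and replicate 2 lowest for Per3 (2.303, the others 3.052 to 3.094). In the 6 h label, replicate 2 was highest for Arntl (15.78 RPKM, the others 13.78 to 14.02) and replicate 4 for Dbp (23.16, the others 18.12 to 18.84); both genes were called against whole muscle with each library left out.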

How the results depend on the processing

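Over the members and named pathway genes, 1921 of 2027 recomputed values kept their direction and their side of the threshold, 60 lost and 20 gained a call, and 26 changed sign. In the 6 h label against whole muscle 210 of 210 were unchanged in this sense, and in the 4 d label 195 of 195. With each library left out in turn, the number of the 10 members called was 10 to 10 in the 6 h label, 8 to 9 in the 1 d label and 9 to 9 in the 4 d label against whole muscle, 9 to 9 for 6 h against 1 d, 10 to 10 for 6 h against 4 d, 7 to 7 for 1 d against 4 d, 8 to 8 for isolated cells, 4 to 7 for the isolation label, 1 to 9 for α-amanitin and 2 to 7 for fixed cells. With all groups in 1 fit, 3 members were called at 1 d against 4 d, and over all genes 5527 (against 9250) at 1 d, 6037 (9586) at 4 d, 864 (6090) at 1 d against 4 d and 9291 (6058) with α-amanitin. Left-out libraries gave 2828 to 10660 genes for α-amanitin and as few as 1527 for fixed cells (2951). With library sizes from all reads, 7 members were called with α-amanitin. The replicate numbers were not shown to pair the libraries: same-numbered libraries deviated together by r over 0.1 in every pair of no comparison, and r was -0.591 to -0.11 for α-amanitin. With the replicate block 0 members and 1978 genes were called for α-amanitin (Nr1d1 adjusted p = 0.0536), 1825 genes for fixed cells, where Per2 and Cry2 lost their calls, and Arntl lost its call in the isolation label.

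Signs changed mostly with library sizes from all reads: at 1 d against whole muscle Nr1d1 (0.14), at 6 h against 1 d Tef (0.091), at 1 d against 4 d Cry1 (0.00064), in isolated cells Arntl (1.03), Cry1 (1.25), Cry2 (1.48), Nr1d1 (0.57) and Tef (0.65), in the isolation label Per3 (-0.50) and Dbp (-0.50), and with α-amanitin Arntl (-0.10), Per1 (-0.46), Cry1 (-0.091), Dbp (-0.15) and Tef (-0.26). With the median of ratios, Nr1d2 changed in isolated cells (-0.15) and Per1 with α-amanitin (-0.10). With 1 library left out, values near 0 changed sign: Cry1 at 1 d against 4 d ranged from -0.0519 to 0.00028 (without 4 d label replicate 2), Nr1d2 in isolated cells from -0.012 (without whole-muscle replicate 1; also below 0 without isolated replicate 2) to 0.057 and Dbp in the isolation label from -0.0057 (without replicate 1) to 0.40. With α-amanitin Cry2 ranged from -0.17 to 0.027 (without inhibitor replicate 1; also above 0 without DMSO replicate 1) and Per1 from -0.067 (without inhibitor replicate 4; also below 0 without replicate 2 or 3) to 0.35. Apart from the scaling, the fits' own construction (fewer libraries, a pooled spread) and the values given, the cause was not tested. Read counts were low for Per1 and Per2 in whole muscle (at the fewest 109 reads, in replicate 1, and 62 reads, in replicate 4).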
